A study of Mus musculus with 6 samples.

Results

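Mammalian cells take up, exchange and recycle amino acids through membrane proteins of the solute carrier (SLC) superfamily, and the same families carry neurotransmitters, taurine, creatine and betaine. The genes described here are those of the families Slc1, Slc3, Slc6, Slc7, Slc36, Slc38 and Slc43, picked by a rule on the symbol from the count table of 4T1 cells, with the cystine transporter Slc7a11 left out. The table held 60 genes that matched among 22116 named genes. The rule asked for a symbol that ends in a number, so Slc6a20a and Slc6a20b were not among them. Of the 60, 25 passed the filter on low counts and were tested, 16 had counts but did not pass, and 19 had no count in any library. The 4T1 line is a mouse mammary carcinoma line kept here in DMEM with serum. Cells had received either the vehicle DMSO or 10 µM P3FI-90, a small-molecule inhibitor of the histone demethylase KDM3B, for 24 h, and mRNA was sequenced from 3 libraries of each. A single cell line grown without other cell types was used, and nothing in the labels says that the 3 libraries of a group came from separate cultures, so the p-values measure the spread between these libraries, which may be technical.

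Amino acid transporters work in groups. Members of the ASC, LAT and y+LAT systems are exchangers: a cell exports one amino acid to import another, so they set the mix of amino acids inside the cell rather than the total. The sodium-coupled transporters of the Slc38 and Slc6 families and the cationic transporters load the cell with the amino acids that the exchangers then trade. Several light chains of the Slc7 family reach the plasma membrane only when joined by a disulfide bond to a heavy chain of the Slc3 family. Others, such as Slc36a1, Slc38a7 and Slc38a9, sit on the lysosome, where amino acids freed by protein breakdown leave for the cytosol and are sensed by the kinase complex mTORC1.

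The libraries held 31327094 to 37395732 counts on named genes. Values are given below as normalized counts, obtained by bringing every library to a common size with edgeR's TMM factors, and fold changes are log2 differences of P3FI-90 against DMSO with their standard error (SE). The adjusted p-values come from edgeR's quasi-likelihood test with Benjamini-Hochberg adjustment over all 12288 tested genes, and a gene was called at an adjusted p under 0.05. The treatment moved most of the transcriptome, with 79.3% of all tested genes called, 39.9% higher and 39.4% lower. The 8 epithelial markers, Krt7, Krt8, Krt18, Krt19, Epcam, Cdh1, Cldn4 and Cldn7, were present in every library, and their summed level was 158550 to 167260 in DMSO and 69072 to 72322 in P3FI-90. Neuron and glia markers summed to at most 19.7 normalized counts in any library, with Snap25 and Gfap at 0 throughout. Leukocyte markers summed to 368 to 434 in DMSO and 279 to 401 in P3FI-90, nearly all of it Cd68, with Adgre1 at 0. Fibroblast markers, mostly Pdgfra, summed to 1411 to 1470 in DMSO and 972 to 1065 in P3FI-90, and endothelial markers to 0 to 13.3 and 18.7 to 26.4. Pecam1, an endothelial marker with few counts, was called higher (log2 difference 2.10 ± 0.849 (SE), adjusted p = 0.0355). It passed the filter on low counts only through the P3FI-90 group, where it had to be high, so its call is no separate support. The part of these marker lists in the results was not tested. Kdm3b, whose product P3FI-90 inhibits, stood at 2852 ± 67.4 against 3109 ± 55.7 normalized counts in DMSO and P3FI-90 (mean ± SD, n = 3), a log2 difference of 0.13 ± 0.0435 (SE), adjusted p = 0.0169. Because the compound acts on the protein, this level does not check the labels.

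In P3FI-90 17 of the 25 tested transporters rose, 7 fell and 1, Slc7a4, was not called. Among carriers of glutamine, Slc1a5 and Slc38a2 fell and Slc38a1 and the lysosomal Slc38a7 rose. The taurine carrier Slc6a6 was also among those that fell, and the lysosomal Slc36a1, the arginine carrier Slc7a1 and the heavy chain Slc3a2 among those that rose. Among all tested genes 79.3% were called, so a high share of calls was the background of this comparison. The upward share, 17 of 25, stood beside 39.9% of all genes, and the downward share, 7 of 25, beside 39.4%. At a log2 difference of at least 1, 8 members were higher and 2 were lower, where the whole transcriptome gave 12.7% and 10.6%. In 23 of 25 members the 3 P3FI-90 libraries did not overlap the 3 DMSO libraries, against 81.2% of all tested genes, and the exceptions were Slc7a7 and Slc7a4. The median log2 difference of the tested members was 0.58, and that of all tested genes was 0.013. Scaling by total counts in place of TMM shifted the median gene by 0.21 and split the transcriptome into 6179 higher and 3641 lower genes, where TMM gave 4908 and 4841, and the members then split into 17 higher and 6 lower. The members Slc1a2, Slc3a1, Slc6a4 and Slc6a19 passed the filter only through the P3FI-90 group, where they had to be high. Among the 21 members with at least 10 counts in every library, 13 were higher and 7 lower, with a median of 0.53. All 11427 genes with such counts split into 4618 higher and 4631 lower (80.9% called), with a median of -0.002. Of the 21 members, Slc7a3, Slc36a1, Slc38a7 and Slc38a9 were higher by at least 1 and Slc1a5 and Slc43a2 lower. Among all genes with such counts 10.2% were higher and 9.97% lower by at least 1.

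**Figure D1:**
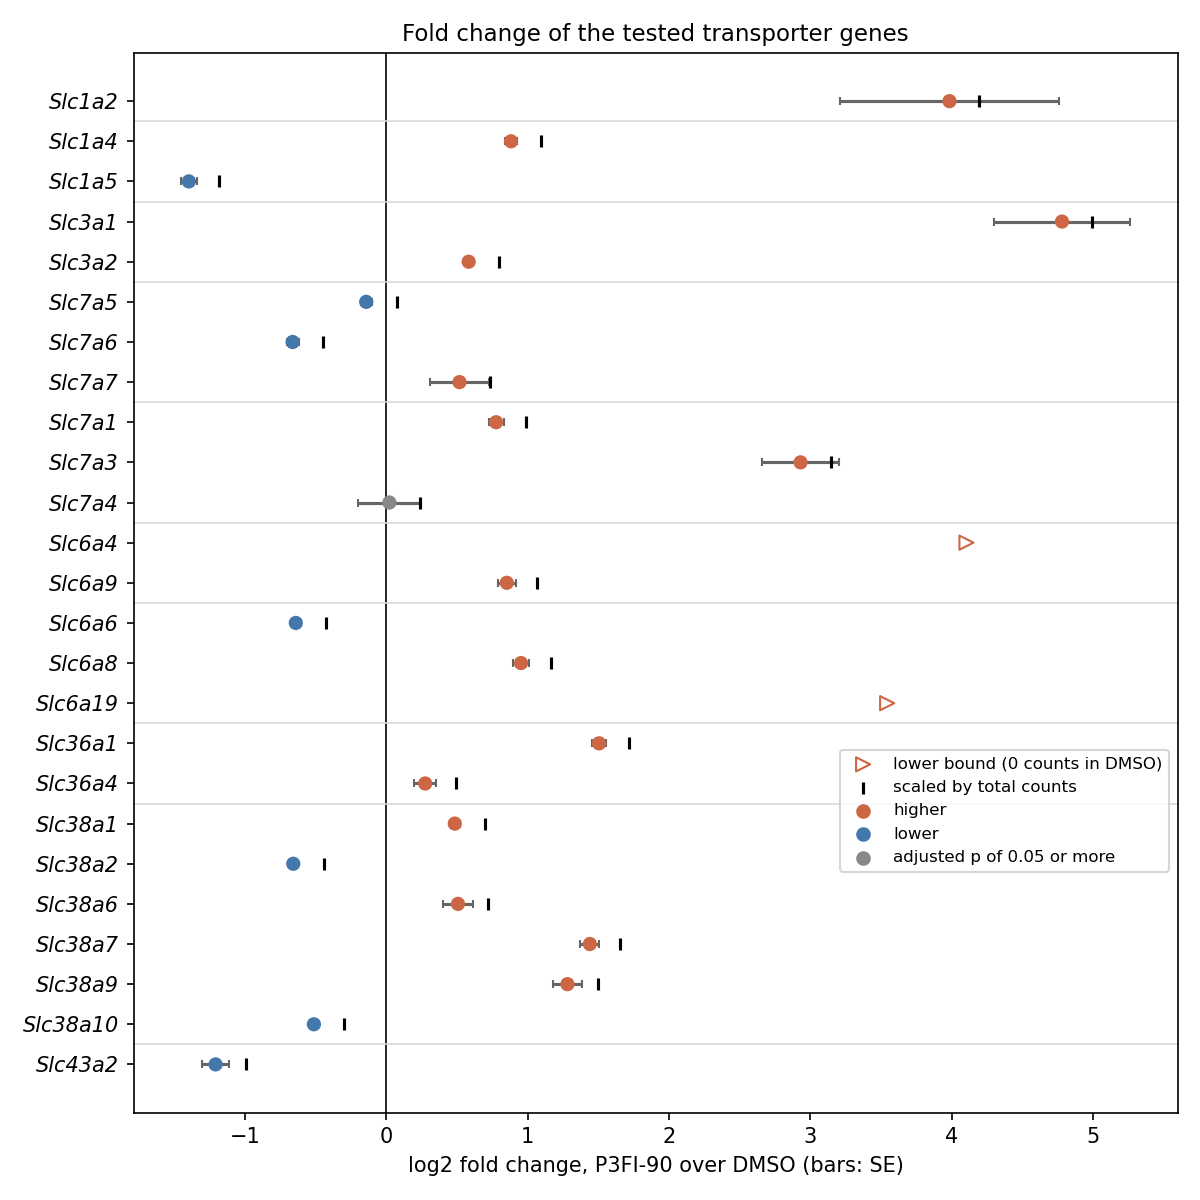
Log2 difference of P3FI-90 against DMSO for the 25 tested transporters, ordered by role, with bars of 1 SE. Open triangles mark the lower bounds of Slc6a4 and Slc6a19, which had no count in DMSO, and black ticks mark the values of the other members after scaling by total counts alone. The neutral exchangers, the light chains, the Slc38 group and the Slc6 carriers of osmolytes, creatine and amino acids each have members on both sides of 0, and the tick of Slc7a5 lies on the other side of 0 from its point.

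Together the members held 0.200% ± 0.0033 (SD, n = 3) of the counts on named genes in DMSO and 0.241% ± 0.0030 in P3FI-90. As normalized counts the sum was 75691 ± 1349 in DMSO and 78342 ± 904 in P3FI-90. The 10 highest members held 91.2 to 91.4% of that sum in DMSO and 85.7 to 86.0% in P3FI-90.

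The neutral amino acid exchangers Slc1a4 and Slc1a5 moved in opposite directions. Slc1a5 encodes ASCT2, a glutamine transporter of many proliferating cells, and Slc1a4 encodes ASCT1, which exchanges alanine, serine, cysteine and threonine. Slc1a5 was at 4311, 3846 and 4038 normalized counts in the 3 DMSO libraries and at 1470, 1571 and 1598 in the 3 P3FI-90 libraries. Every treated library was below every control library, and Slc1a5 fell 2.63-fold (log2 difference -1.39 ± 0.0548 (SE), adjusted p = 1.77e-11). Slc1a4 stood at 1976, 1963 and 1881 in DMSO and 3558, 3596 and 3579.5 in P3FI-90, a range that again did not overlap, and it rose 1.84-fold (0.88 ± 0.0448 (SE), adjusted p = 2.61e-10). The ratio of Slc1a4 to Slc1a5 counts within a library, which no scaling between libraries can move, was 0.458, 0.510 and 0.466 in DMSO and 2.42, 2.29 and 2.24 in P3FI-90, a log2 change of 2.28. The exact two-sided permutation test of this ratio gave p = 0.1, the smallest that 3 against 3 libraries allow, and 0.125 after Benjamini-Hochberg adjustment over the 5 ratios tested.

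Of the 18 tested members with a promoter window in RefSeq (GRCm38.p6, 250 bases before to 50 after the start), 2 held TGATGNAA on either strand, the letters of an element bound by ATF4 and C/EBP factors during amino acid deprivation. They were Slc1a4 and Slc7a7, 11.1% of the 18, where a gene counts once if any of its windows matched. Counted so, the same letters were in 2.63% of tested genes, in 4.51% of all genes with a window and in 3 of 42 members (7.14%). Of all 32851 windows, 3.97% held them. The Slc1a4 stretch is shown with the match in capitals, read on the gene's strand (minus, chr11:20332694-20332793), from 80 bases before to 20 after the start. The shown letters are the reverse complement of the searched ones.
Slc1a4: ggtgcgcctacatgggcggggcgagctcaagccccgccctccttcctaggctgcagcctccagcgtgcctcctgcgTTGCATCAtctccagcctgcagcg
Slc7a7 has several overlapping windows that share a match, and they are not printed. No window was at hand for Slc1a5, Slc7a5, Slc7a3, Slc7a4, Slc6a6, Slc6a8 and Slc38a1. A match in such a window is a description of the letters, and no binding was measured.

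The heavy chain Slc3a2 (CD98hc) and its light chains did not move together. Slc3a2 was at 8652, 8288 and 8308 normalized counts in DMSO and 12839, 12478 and 12525 in P3FI-90. The treated libraries were all higher, and Slc3a2 rose by 0.58 on the log2 scale (± 0.0328 SE, adjusted p = 7.82e-10). Slc7a5 encodes LAT1, the light chain that imports leucine and other large neutral amino acids and was the most abundant member per kilobase in DMSO. It stood at 11549, 10525 and 11120 in DMSO and 10062, 9758 and 10294 in P3FI-90, which did not overlap but lay close together, and its call (-0.14 ± 0.0387 (SE), adjusted p = 0.00416) turned to 0.074 with an adjusted p of 0.0930 when libraries were scaled by total counts alone. Slc7a6 (y+LAT2), which exchanges cationic for neutral amino acids, was at 4879, 4827 and 4934 in DMSO and 2959, 3044 and 3258 in P3FI-90 and fell by 0.66 on the log2 scale (± 0.0427, adjusted p = 3.62e-09). Slc7a7 (y+LAT1), the epithelial relative of Slc7a6, was at 128, 101 and 182 in DMSO and 175, 220.3 and 195 in P3FI-90, and the highest DMSO library lay above the lowest treated one. The log2 difference of Slc7a7 was 0.52 ± 0.206 (SE), adjusted p = 0.0325, and 4 of the 6 libraries decided its call. The adjusted p was 0.0978 with DMSO 1 left out, 0.128 with DMSO 2, 0.111 with P3FI-90 2 and 0.0565 with P3FI-90 3. Exons of Slc7a7 overlap those of the opposite-strand gene Oxa1l by 232 bases. Oxa1l was lower in P3FI-90 (log2 difference -0.64, adjusted p = 9.45e-09), and with the strand of counting not stated, reads of the pair cannot be told apart.

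Counted against their heavy chain, the light chains Slc7a5 and Slc7a6 were lower in every treated library than in every control library. The within-library ratio of Slc7a5 to Slc3a2 counts was 1.33, 1.27 and 1.34 in DMSO and 0.784, 0.782 and 0.822 in P3FI-90, a log2 change of -0.72 (exact permutation p = 0.1, adjusted 0.125). The ratio of Slc7a6 to Slc3a2 moved from 0.564, 0.582 and 0.594 to 0.230, 0.244 and 0.260, a log2 change of -1.25 with the same p-values. For Slc7a7 over Slc3a2 the change was -0.024 (exact permutation p = 1), within the spread between libraries. Of 8 ratios planned, 3 were not computed because Slc7a8, Slc7a2 or Slc43a1 had too few counts.

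**Figure D2:**
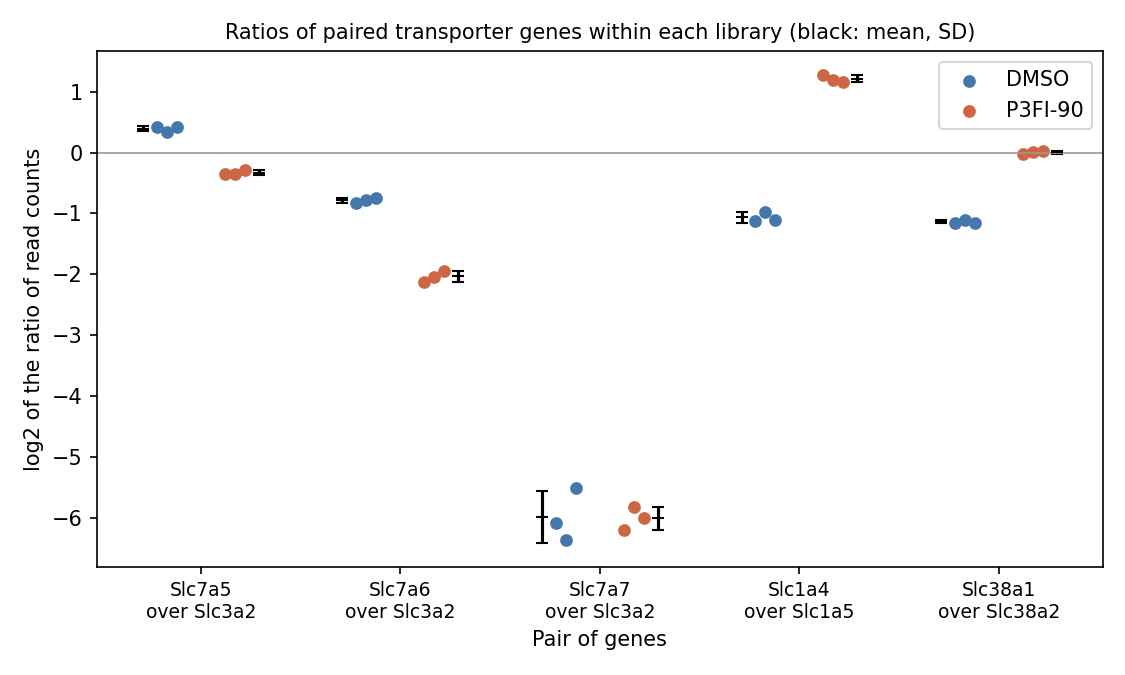
Log2 ratio of the counts of paired transporters within each library, for DMSO and P3FI-90 (coloured points are libraries, and black bars beside them are the group mean ± SD). Slc1a4 over Slc1a5 and Slc38a1 over Slc38a2 moved up, Slc7a5 and Slc7a6 over Slc3a2 moved down, and Slc7a7 over Slc3a2 overlapped between the groups.

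The other heavy chain, Slc3a1 (rBAT), is best known from kidney and intestine, where it joins the light chain Slc7a9 to carry cystine and cationic amino acids. It had 3, 0 and 11 counts in DMSO and 173, 137 and 137 in P3FI-90. The low DMSO counts did not reach the treated ones, and the log2 difference was 4.78 ± 0.481 (SE), adjusted p = 4.53e-07. It became 6.30 (adjusted p = 3.03e-07) without the third DMSO library and 4.27 without the second. Slc7a9 and Slc7a13, its light chains, had no count in any of the 6 libraries. Slc3a1 overlaps the opposite-strand gene Prepl by 601 exonic bases. Prepl was at 1975 normalized counts in DMSO and 1697 in P3FI-90, a log2 difference of -0.22 ± 0.0528 (SE), adjusted p = 0.00173. The strand of counting is not stated, so reads from the shared bases of Slc3a1 and Prepl cannot be told apart.

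Of the 3 tested cationic amino acid transporters, Slc7a1 and Slc7a3 rose and Slc7a4 was not called. Slc7a1 encodes CAT1, the main arginine and lysine carrier of most cells. It was at 5695, 4745 and 5450 normalized counts in DMSO and 9110.1, 9115 and 9032 in P3FI-90, with the treated libraries far above, and rose 1.71-fold (0.78 ± 0.0531 (SE), adjusted p = 6.59e-09). Slc7a3 (CAT3), a carrier known mostly from brain and thymus, was at 20.2, 15.7 and 14.3 in DMSO and 133, 113 and 140.1 in P3FI-90. All treated libraries were above all controls, and its log2 difference was 2.93 ± 0.270 (SE), adjusted p = 1.73e-07. Slc7a4 was at 84.0, 87.9 and 88.8 in DMSO and 75.8, 84.5 and 105 in P3FI-90, with overlapping groups and a log2 difference of 0.02 ± 0.220 (SE), adjusted p = 0.926. Its exons overlap the opposite-strand gene P2rx6. Slc7a2 (CAT2) had 0 counts in DMSO and 4, 5 and 3 in P3FI-90. With a floor of 3 counts over the DMSO group and the P3FI-90 counts taken as exact, it was at least 3.50-fold higher.

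The sodium-coupled neutral transporters of the plasma membrane, Slc38a1 (SNAT1) and Slc38a2 (SNAT2), load cells with glutamine, alanine and other small neutral amino acids. Slc38a2 was at 11666, 11820 and 11915 normalized counts in DMSO and 7580.2, 7487 and 7391 in P3FI-90. The groups were far apart and Slc38a2 fell 1.58-fold (-0.66 ± 0.0314 (SE), adjusted p = 1.36e-10). Slc38a1 was at 5262, 5493 and 5346 in DMSO and 7474, 7548 and 7516 in P3FI-90, with all treated libraries higher, and rose 1.40-fold (0.49 ± 0.0335 (SE), adjusted p = 7.43e-09). Within a library the ratio of Slc38a1 to Slc38a2 counts was 0.451, 0.465 and 0.449 in DMSO and 0.986, 1.01 and 1.02 in P3FI-90. This was a log2 change of 1.14 (exact permutation p = 0.1, adjusted 0.125). Counts do not allow for gene length, and per kilobase of exon Slc38a1 was at 436 and Slc38a2 at 847 in P3FI-90. Slc38a10, a member whose substrate is less settled, was at 7816, 7821 and 7975 in DMSO and 5412, 5477 and 5686 in P3FI-90 and fell 1.42-fold (-0.51 ± 0.0343 (SE), adjusted p = 5.50e-09). Slc38a6 rose from 344 to 490.3 normalized counts (0.51 ± 0.108 (SE), adjusted p = 6.45e-04). In Slc38a6, 22.8% of 50-base windows also occur in Nopchap1 (-0.72, adjusted p = 1.62e-08), so reads could be shared between them.

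Slc36a1, Slc38a7 and Slc38a9, which work at the lysosome, all rose by more than 1 on the log2 scale, and they were grouped here after the values were seen. Slc38a7 (SNAT7) exports glutamine and asparagine from the lysosome. It was at 726, 845 and 845 normalized counts in DMSO and 2285, 2069.9 and 2198 in P3FI-90, and the treated libraries were all higher (2.71-fold, 1.44 ± 0.0679 (SE), adjusted p = 1.18e-10). Slc36a1 (PAT1), a proton-coupled exporter of small neutral amino acids, was at 857, 832 and 850.1 in DMSO and 2396, 2364 and 2454 in P3FI-90, with little spread within a group. It rose 2.84-fold (1.51 ± 0.0501 (SE), adjusted p = 3.26e-12). Slc38a9, which senses lysosomal arginine for mTORC1, was at 374, 322 and 370.5 in DMSO and 855, 779.6 and 965 in P3FI-90 and rose 2.43-fold (1.28 ± 0.0999 (SE), adjusted p = 2.78e-08). Slc36a4, a relative of Slc36a1, rose from 636 to 769 normalized counts (0.28 ± 0.0798 (SE), adjusted p = 0.00575).

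Slc36a1 and Slc38a7 are also the tested members whose promoter windows hold CACGTG, the E-box read by the MiT/TFE factors that drive lysosomal genes as well as by MYC, MAX and USF factors. The letters were chosen after the values were seen. They were in 2 of the 18 tested members with a window (11.1%), in 11.6% of tested genes and in 8.09% of all genes with a window. Here a gene counts once if any of its windows matched. Of all windows, 7.15% held them. Slc36a1 also held the longer TCACGTGA, which contains CACGTG and occurs in 0.974% of all windows and 2.21% of tested genes. The Slc38a9 window held neither. Among all 42 members with a window 9 held CACGTG, and 7 of them were not tested. The stretches from 80 bases before to 20 after the start are given on the gene's strand (plus for Slc36a1, chr11:55204260-55204359, and minus for Slc38a7, chr8:95853472-95853571, GRCm38.p6), with the matches in capitals.
Slc36a1: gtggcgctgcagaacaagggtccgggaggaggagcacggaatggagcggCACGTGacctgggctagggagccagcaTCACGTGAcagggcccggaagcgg
Slc38a7: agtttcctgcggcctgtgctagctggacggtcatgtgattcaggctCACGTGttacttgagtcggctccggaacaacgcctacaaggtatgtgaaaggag
No factor binding was measured in these cells.

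Among the Slc6 transporters with clear expression, the creatine and glycine carriers rose and the taurine carrier fell. Slc6a8 (creatine) was at 1568, 1452 and 1555 normalized counts in DMSO and 3104, 2755 and 3012 in P3FI-90, which did not overlap, and rose 1.94-fold (0.95 ± 0.0576 (SE), adjusted p = 1.71e-09). Slc6a9, the glycine transporter GlyT1, was at 1008, 899.6 and 1049 in DMSO and 1719.8, 1816 and 1812 in P3FI-90 (0.85 ± 0.0639 (SE), adjusted p = 1.78e-08). Its exons overlap the opposite-strand genes Ccdc24 and B4galt2, the second of which was lower (-0.67, adjusted p = 4.14e-08). Slc6a6 encodes the taurine transporter TauT. Its level was 8289, 8396 and 8498 in DMSO and 5304, 5264 and 5609 in P3FI-90, with every treated library below every control, and it fell 1.56-fold (-0.64 ± 0.0359 (SE), adjusted p = 7.91e-10).

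Several neurotransmitter and epithelial Slc6 carriers had no count in DMSO and a few in P3FI-90. The serotonin transporter Slc6a4 had 0, 0 and 0 counts in DMSO and 16, 30 and 13 in P3FI-90. It was at least 17.2-fold higher with a floor of 3 counts over the DMSO group, or at least 8.59-fold with a floor of 6, and edgeR's adjusted p was 2.21e-04. Slc6a19 (B0AT1), the neutral amino acid carrier of kidney and intestine, had 0 in each DMSO library and 18, 12 and 10 in P3FI-90, at least 11.7-fold higher (5.83 with the floor of 6, adjusted p = 6.93e-04). Slc6a14 (ATB0,+), which takes up neutral and cationic amino acids, was below the filter and had 0 counts in DMSO and 8, 8 and 10 in P3FI-90, at least 7.57-fold higher (3.79 with the floor of 6). The bounds take the P3FI-90 counts as exact. Each of these 3 genes had counts in all 3 treated libraries and in none of the controls. Slc6a4 and Slc6a19 passed the filter only through P3FI-90, where they had to be high, so this pattern is no separate support. Of all genes with counts below the filter, 43.6% had counts in P3FI-90 alone. Leaving out any library put their bounds at 11.1 to 19.7 for Slc6a4, 7.54 to 12.8 for Slc6a19 and 4.90 to 8.04 for Slc6a14. Cltrn, a partner that brings Slc6a19 to the surface, had no count in any library. In bulk RNA, more cells that express such a gene and more RNA per cell cannot be told apart.

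The glutamate transporter Slc1a2 (GLT-1), best known from astrocytes, had 3, 2 and 0 counts in DMSO and 49, 15 and 32 in P3FI-90. The treated libraries were all higher but varied among themselves, and the log2 difference was 3.98 ± 0.772 (SE), adjusted p = 2.92e-04. Without the first DMSO library it was 4.61 and without the third 3.40. The summed neuron and glia markers overlapped between the groups, at 7.14 to 14.5 normalized counts in DMSO and 9.80 to 19.7 in P3FI-90. Slc43a2 (LAT4), a uniporter that lets large neutral amino acids leave the cell, was at 878, 867 and 789.9 in DMSO and 322, 367 and 410.5 in P3FI-90 and fell 2.31-fold (-1.21 ± 0.0981 (SE), adjusted p = 4.44e-08), the other member lower by at least 1 on the log2 scale besides Slc1a5.

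**Figure D3:**
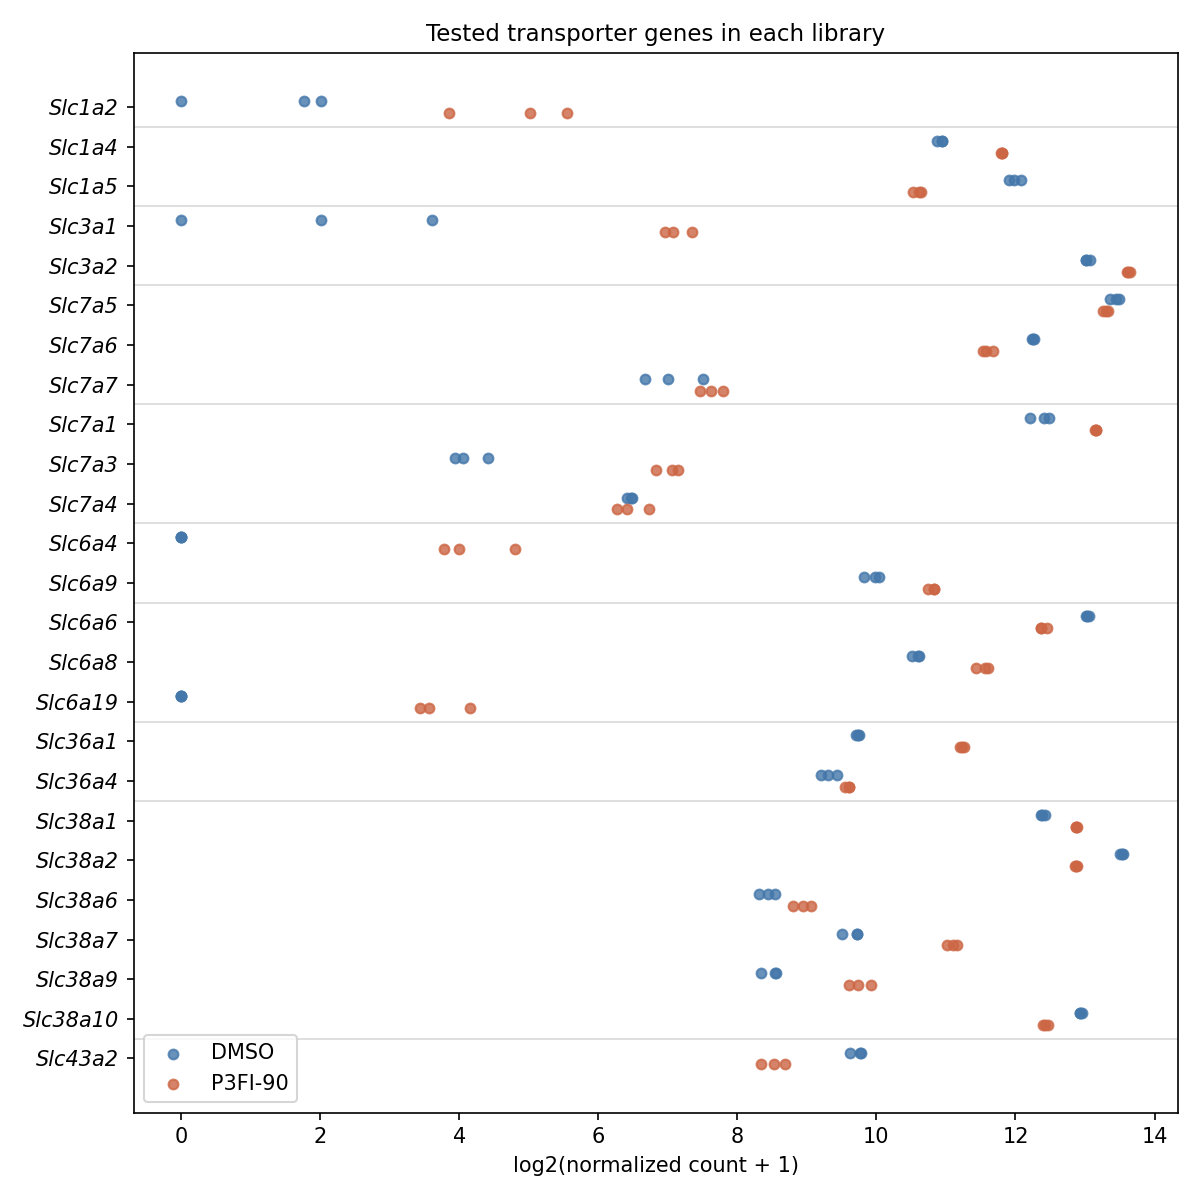
Level of each tested transporter in the 6 libraries as log2(normalized count + 1), with 1 point a library and lines between roles. Slc1a5, with mean normalized counts of 4065 in DMSO and 1546 in P3FI-90, is separated between the groups, and the low genes Slc3a1, Slc1a2, Slc6a4 and Slc6a19 have their points near or at 0 in DMSO.

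Among the 16 members with counts below the filter, 10 had counts in P3FI-90 and none in DMSO, and 1, Slc43a3, had counts in DMSO alone. Of all 3365 genes with counts below the filter, 43.6% had counts in P3FI-90 alone and 13.6% in DMSO alone, so low counts leaned the same way across the transcriptome. Slc1a7 had 17 counts in P3FI-90 and none in DMSO (at least 4.95-fold, or 2.48-fold with the floor of 6). Slc6a5 had 14, of which 12 came from the second treated library, and Slc7a14 had 14, all from the third, with none in DMSO. Over the group each of these 2 genes had a bound of 4.08-fold with the floor of 3 and 2.04-fold with the floor of 6. Their counts rest mostly or wholly on 1 library, so these values do not bound an effect of the treatment. Slc1a1 and Slc6a12 had 4 counts each in P3FI-90 and none in DMSO. With counts on both sides, Slc38a4 had 2 in DMSO and 18 in P3FI-90, a ratio of 7.87 with an exact 95% interval of 1.88 to 69.9, and Slc6a15 had 2 and 14, a ratio of 6.12 (1.41 to 55.5). The intervals cover counting error only. The bounds put a floor in place of the DMSO count and take the P3FI-90 count as exact, leaving out its counting error. Each library had more genes with 2 counts than with 1, as would be so if each mate of a pair were counted alone. A floor of 6 counts is therefore given as well for the largest bounds. Slc7a8, Slc36a2, Slc7a15, Slc6a3, Slc38a3 and Slc43a3, had at most 5 counts in either group. The 19 members without a count were Slc1a3, Slc1a6, Slc6a2, Slc6a7, Slc6a11, Slc6a13, Slc6a16, Slc6a17, Slc6a18, Slc6a21, Slc7a9, Slc7a10, Slc7a12, Slc7a13, Slc36a3, Slc38a5, Slc38a8, Slc38a11 and Slc43a1. They include the noradrenaline carrier Slc6a2, the GABA carriers Slc6a11 and Slc6a13 and the astrocyte glutamate carrier Slc1a3.

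The order of abundance per kilobase of exon changed after treatment. Normalized counts per kilobase, with lengths from an annotation of the earlier build GRCm38, were highest for Slc7a5 (2984), Slc3a2 (2385), Slc38a2 (1335), Slc38a10 (1226) and Slc7a6 (1068) in DMSO. In P3FI-90 the order was Slc3a2 (3574), Slc7a5 (2707), Slc1a4 (911), Slc38a10 (860) and Slc38a2 (847). Slc1a5 went from place 7 to place 13 among the 25, and Slc1a4 from place 8 to place 3. Neighbours within the spread between libraries, such as Slc38a10 and Slc38a2 in P3FI-90, are not separated by these values, since exon lengths carry error that the SD does not hold.

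**Figure D4:**
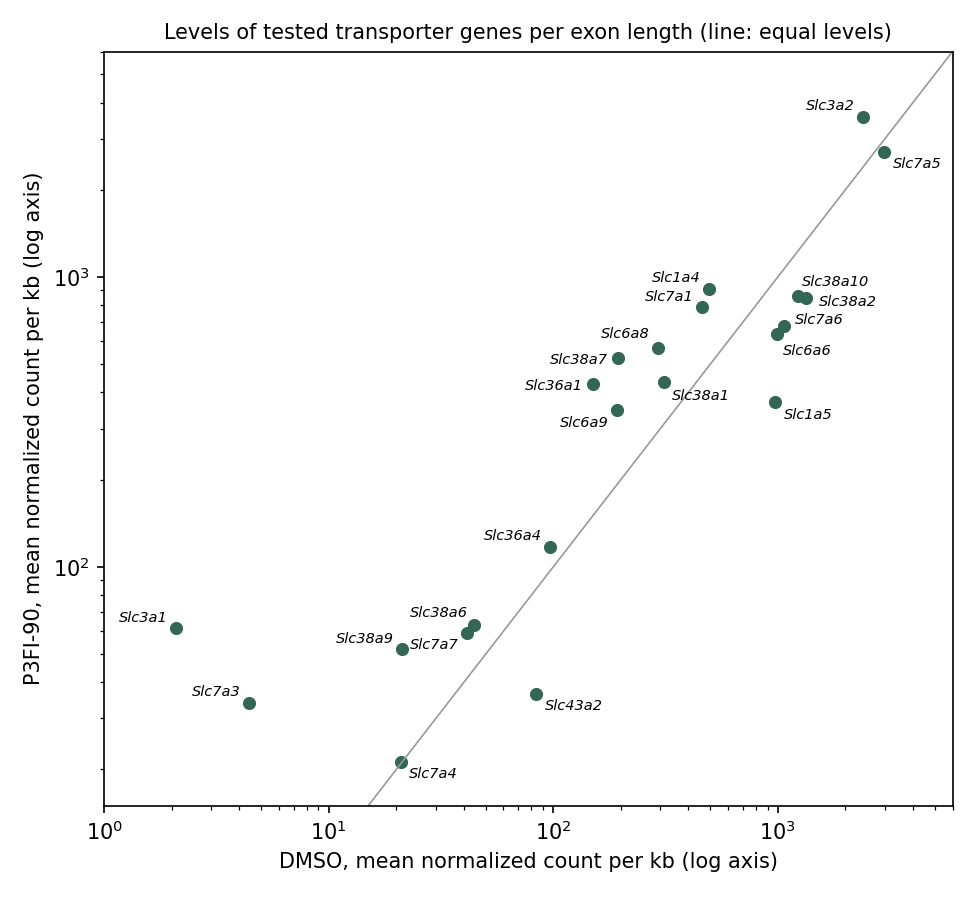
Mean normalized counts per kilobase of exon in DMSO (x axis) and in P3FI-90 (y axis) for the tested transporters above 1 per kilobase in DMSO, on log axes with a line of equal levels (Slc1a2, Slc6a4 and Slc6a19 are not drawn). Slc1a4 lies above the diagonal at 494 and 911, and Slc1a5 below it at 974 and 371.

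Other amino acid genes were read from lists chosen with earlier results of these data known. Transporters outside the 7 families, mostly of amino acids, were mixed, with 7 higher, 7 lower and 6 neither of 20 tested (median 0.11). After scaling by total counts 10 were higher and 6 lower. Among the 18 with at least 10 counts in every library, 5 were higher and 7 lower (median 0.041). Beside them stood 4618 higher and 4631 lower of all 11427 genes with such counts. The share called, 70% of the 20, stood beside 79.3% of all tested genes. Ctns, the lysosomal cystine exporter, rose from 519 to 1950.2 normalized counts (1.91 ± 0.0597 (SE), adjusted p = 1.84e-12). The mitochondrial glutamate carrier Slc25a18 rose from 4.11 to 26.8 (2.73 ± 0.704 (SE), adjusted p = 0.00273) and the vesicular nucleotide carrier Slc17a9 from 11.9 to 44.5 (1.93 ± 0.463 (SE), adjusted p = 0.00163). Both rest on few counts and passed the filter only through the P3FI-90 group, where they had to be high, so their calls are no separate support. The log2 difference of Slc25a18 was 2.12 without DMSO 1 and 3.34 without DMSO 2, and that of Slc17a9 was 1.55 without DMSO 1 and 2.52 without DMSO 2. Named after their values were seen, Slc66a1, which exports cationic amino acids from the lysosome, was at 138 ± 13.3 against 392 ± 9.95 normalized counts in DMSO and P3FI-90 (adjusted p = 8.01e-08). The lysosomal histidine and peptide carrier Slc15a4 differed by 1.47 on the log2 scale, and the lysosomal Slc17a5 and Mfsd12, at 0.15 and 0.07, were not called.

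Of 24 genes of the amino acid deprivation response, 18 were higher, 5 lower and 1 neither (median 0.61), and 19 and 5 after scaling by total counts. Of these 24, 95.8% were called, beside 79.3% of all tested genes, where 39.9% were higher and 39.4% lower. Ddit3 (CHOP) rose from 193 to 3504 normalized counts (4.18 ± 0.0634 (SE), adjusted p = 2.54e-15), Ppp1r15a from 341 to 5947 (4.12 ± 0.0642 (SE), adjusted p = 3.08e-15) and Atf3 from 209 to 2616 (3.64 ± 0.0917 (SE), adjusted p = 2.22e-13). Asns, the asparagine synthetase that deprivation induces, differed by 0.19. The lower genes were Cth (-1.84), Ddit4 (-1.37), Pck2 (-1.33), Cebpb (-0.78) and Eif2ak4 (-0.55). This list also holds the kinases related to Eif2ak4, of which Eif2ak3 (1.39) and Eif2ak2 (0.24) were higher and Eif2ak1 was not called. It therefore does not single out amino acid deprivation, and what moved its genes was not tested. Of the 28 tested genes of lysosomal amino acid sensing by mTORC1, 15 were higher, 9 lower and 4 neither (median 0.17), and 19 and 7 after scaling by total counts. The 85.7% of them that were called lay near the 79.3% of all tested genes. The 3 largest changes among the called genes of this list were in the folliculin complex, with Fnip1 at 2.97 ± 0.0466 (SE), adjusted p = 3.23e-15, Flcn at 2.22 ± 0.0452 (SE), adjusted p = 3.42e-14 and Fnip2 at 1.75 ± 0.0595 (SE), adjusted p = 3.89e-12. Sfxn1 and Wdr59, of these lists, turned from lower to not called when libraries were scaled by total counts. 

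**Figure D5:**
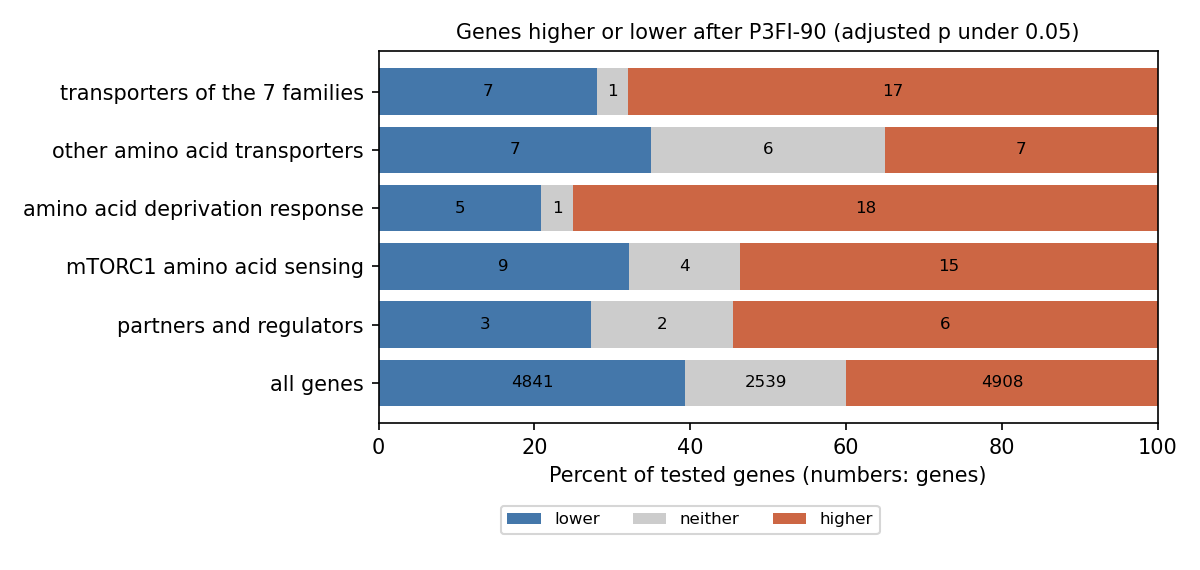
Percent of the tested genes called lower (blue), neither (grey) or higher (orange) after P3FI-90 in the transporters, the 4 other lists and all genes, with the number of genes in each part of a bar. The transporters split into 7 lower, 1 neither and 17 higher, and all genes into 4841, 2539 and 4908. The median log2 differences, not drawn, are 0.58 for the transporters, 0.11 for other amino acid transporters, 0.61 for the deprivation response, 0.17 for mTORC1 sensing and 0.35 for partners and regulators.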

How the data were processed

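mRNA of 4T1 cells, 3 libraries a group, was sequenced on an Illumina NovaSeq instrument. The submitters' processing notes name CASAVA, HISAT2, StringTie and GRCm39, with no version or annotation given. The deposited values are gene counts made by the authors, and the tool and strand setting of the counting are not given in the sources used here. Every count column matched a sample. Rows without a gene name, 285 in all and 0.483 to 0.556% of counts, were left out. Members and lists were chosen with earlier results of these data known. Counts were filtered with filterByExpr, scaled by TMM and tested with edgeR's quasi-likelihood test (edgeR 4.0.16, R 4.3.3) with Benjamini-Hochberg adjustment, first tested on simulated data. This fit was chosen because the values are counts, while the study's methods name limma, run as an alternative (limma 3.58.1) with DESeq2 1.42.0. The named members were those with a log2 difference of at least 1 past the threshold, the 10 most abundant, and those in the paired ratios, and the other genes of each list were the 3 with the largest change. One member below the filter and some listed genes are not reported here. Members outside this rule (Slc36a4, Slc38a6, Slc6a8, Slc6a9 and Slc7a4) were named after their values were seen. Ratios were tested by exact permutation. Exon lengths are GENCODE M21 on GRCm38, matched by Ensembl ID, and promoters are RefSeq windows of GRCm38.p6.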

Additional observations from a re-analysis of the deposited data

How the results depend on the processing

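Of the 60 members, 25 were tested, and under DESeq2 size factors, upper-quartile factors, total counts, other filters, DESeq2, limma-voom and limma on log2(CPM + 1), 13 to 19 members were higher and 6 or 7 lower. Scaling by total counts moved the median of all genes by 0.21, and the transcriptome then split into 6179 higher and 3641 lower genes in place of 4908 and 4841. The median of the members became 0.80 with total counts, 0.95 with no filter (41 members), 0.53 with at least 10 counts in every library and 0.48 with limma on log2(CPM + 1), and 0.57 to 0.77 when each library was left out, the highest without the third DMSO library. Slc7a5 turned to 0.074 (adjusted p = 0.0930) with total counts. Over the 20 members named by rule, 291 results kept their call and direction, 4 lost the call and 1 turned, and the 4 were Slc7a7 without 4 of the libraries. Sizes of low genes depended on the pseudocount: with limma on log2(CPM + 1) the log2 difference was 0.79 for Slc1a2, 2.14 for Slc3a1, 1.66 for Slc7a3, 0.59 for Slc6a4, 0.44 for Slc6a19, 0.65 for Slc25a18 and 0.77 for Slc17a9, and with limma-voom it was 5.50 for Slc3a1. The Slc7a7 over Slc3a2 ratio, -0.024 with all libraries, ranged from -0.21 to 0.21 when a library was left out (0.21 without the third DMSO library, 0.071 without the first P3FI-90 library), and no other ratio turned. Replicate numbers do not pair the samples: deviations of same-numbered libraries correlated at -0.021, 0.015 and 0.0049, and a replicate block gave 17 higher and 7 lower members, a median of 0.58 and 4802 and 4722 genes higher and lower. The low members rest on few counts, so a bound there depends on the floor.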

Other observations

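Among partners and regulators that bring transporters to the membrane or remove them, 6 of 11 tested genes were higher, 3 lower and 2 neither, with a median log2 difference of 0.35, and 8 were higher and 3 lower after scaling by total counts. The share called, 81.8%, was near the 79.3% of all tested genes. Txnip, an arrestin that takes glucose transporters into the cell, rose from 1938 to 8811 normalized counts (2.19 ± 0.0540 (SE), adjusted p = 1.85e-13). The kinase Sgk1, which promotes the surface level of several carriers, fell from 3941 to 1669 (-1.24 ± 0.0445 (SE), adjusted p = 6.93e-12). Arl6ip5, a binding partner of the glutamate transporter EAAC1, rose from 3475 to 7915 (1.19 ± 0.0387 (SE), adjusted p = 2.74e-12). EAAC1 is the product of the member Slc1a1, which had 0 counts in DMSO and 4 in P3FI-90. Nedd4l, a ubiquitin ligase that marks carriers for removal, was at 0.72, its relative Nedd4 at -0.54, and the kinase Sgk3 at -1.04. Only Txnip, Sgk1 and Arl6ip5 were chosen by the naming rule, and Nedd4l, Nedd4 and Sgk3 were named after their values were seen.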
